A study of Rattus norvegicus with 48 samples.

Results

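The genes described are those for the Arf and Arf-like (Arl) small GTPases, the proteins named after them, and the subunits of the adaptor protein complexes AP-1 to AP-5, measured by RNA-Seq in rat cerebral endothelial cells (CECs). They were taken by a rule on the symbol, which was set with earlier results of these data known. It asks for a name that begins with Arf, with Arl and a digit, or with Ap1 to Ap5 followed by a subunit letter and a digit. 60 genes met this rule, and all 60 had at least 1 read in each sample, among 13050 genes that passed the same filter. A symbol was at hand for 2043 of those 13050 genes, so that genes of these families without one were not analysed here. The list splits into 9 classes, namely 5 Arf GTPases, 16 Arf-like GTPases, 8 Arf regulators and effectors, 6 proteins named for an Arl GTPase, 6 AP-1 subunits, 5 AP-2 subunits, 6 AP-3 subunits, 4 AP-4 subunits and 4 AP-5 subunits.

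CECs came from the cerebral cortex of male Wistar-Han rats that were either fed ad libitum (AL) or deprived of food, with free water, for 1 day (F1), 2 days (F2) or 3 days (F3). The age of the animals is not given in the sources used here. The cells were isolated by magnetic sorting, with removal of CD11b-positive cells and retention of CD31-positive cells, from tissue in which cortices of different rats had been combined, so that no sample stands for 1 animal. Each group held 3 samples, named i, j and k, and each sample was sequenced as 4 technical replicates, which were summed here. Values are normalized read counts, that is, counts corrected for library size, and changes are given as log2 fold changes (LFC) with their standard error (SE) or 95% confidence interval. A gene was said to have risen or fallen when its p-value, adjusted over all 13050 genes by the Benjamini-Hochberg method after edgeR's quasi-likelihood test, was at most 0.05.

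Arf GTPases switch between a GDP-bound and a GTP-bound form, under the control of exchange factors (ArfGEFs) and GTPase-activating proteins (ArfGAPs), and in the GTP-bound form they recruit coats and adaptors to membranes. AP-1 and AP-2 link cargo to clathrin at the trans-Golgi network and endosomes and at the plasma membrane, respectively, AP-3 sorts cargo toward lysosomes, and AP-4 and AP-5 work on Golgi and late endosomal membranes without clathrin. In the brain endothelium these coats serve the receptor-mediated uptake and sorting of proteins such as transferrin, within cells known for low vesicular traffic.

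The 12 samples held between 20718644 and 25960874 assigned reads. One of them stood apart for these genes, since F2 sample j gave the lowest value of the 12 for 14 of the 60 genes and the highest for 16 of them. It was thus the extreme sample for 50.0% of them, against 41.0% of all genes tested, and the next sample in this respect, F3 sample i, was the extreme one for 28.3%. The 3 endothelial markers with an identifier (Pecam1, Abcb1a and Slc2a1, of 10 listed) were abundant in every sample, with Pecam1, the gene for CD31, between 31655 and 38792 normalized counts. All F1 samples of Pecam1 were above AL (LFC 0.16 ± 0.07, edgeR's quasi-likelihood test, Benjamini-Hochberg adjusted p = 0.233), so that it is not an even reference for percentages. Slc2a1 rose in F1 and F3 rats (LFC 0.43 and 0.52, adjusted p = 0.0109 and 0.00194 by edgeR). Its F2 samples were also all above AL, and the LFC of 0.40 narrowly missed the threshold (adjusted p = 0.0503 by edgeR). Abcb1a overlapped with AL throughout. Of the other cell types, the 3 pericyte and smooth muscle markers with an identifier (Abcc9, Anpep and Acta2, of 10 listed) summed to 1908 to 4372 in AL samples, 2066 to 2365 in F1, 2451 to 4744 in F2 and 1689 to 4443 in F3, or 5.10% to 14.8% of Pecam1. Abcc9 weighed most in these sums (mean 2418.5, against 375.7 and 219.5) and overlapped between groups. All F2 samples of Acta2 were above AL (LFC 0.83 ± 0.31, edgeR's quasi-likelihood test, Benjamini-Hochberg adjusted p = 0.278), where Anpep overlapped. All F2 samples of Anpep were above F1 (LFC 0.98 ± 0.35, adjusted p = 0.178 by edgeR), where Acta2 overlapped. Their part in the F2 results was not tested. The 6 microglial markers with an identifier, of 10 listed, summed to at most 134 normalized counts in any sample. Aldoc, the 1 astrocyte marker of 6 listed that had an identifier, was at 1826 to 2155 normalized counts in AL, 1702 to 2277 in F1, 1530 to 2239 in F2 and 1546 to 1588 in F3 samples, or 4.59% to 6.93% of Pecam1. F3 samples were all below those of AL (LFC -0.34 ± 0.13, edgeR's quasi-likelihood test, Benjamini-Hochberg adjusted p = 0.111), and its part in the F3 results was not tested. Alas2, the 1 red blood cell marker of 4 listed that had an identifier, was at 36.1 to 110.3 normalized counts, with overlap between groups. Neuron, oligodendrocyte and fibroblast markers had no identifier here and were not analysed. In such bulk samples fewer cells of a type and less RNA per cell cannot be told apart.

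Few of the 60 genes passed the threshold. 2 of them (3.33%) rose in F1 against AL rats and none fell, where 6.56% of all genes were past the threshold (505 higher and 351 lower). In F2 against AL rats 0 of the 60 were past the threshold of edgeR's test (0.858% of all genes), 6 had an unadjusted p under 0.05 and the Wald test of DESeq2 called 1, Arf1 (2.75% of all genes by that test). In F3 against AL rats 2 rose and none fell, where 12% of all genes were past the threshold (819 higher and 753 lower). With total counts as scaling 2 rose and 3 fell (12.4% of all genes in either direction). From F1 to F2 rats 0 were called by edgeR (1.43% of all genes), with 8 at an unadjusted p under 0.05 and 1, Arl14ep, called by DESeq2 (4.72% of all genes by that test). From F2 to F3 rats 2 rose and none fell, where 5.94% of all genes were past the threshold (472 higher and 303 lower). The genes past the threshold were Arl6ip4 and Arl14ep in both F1 and F3 rats, and Arl14ep and Ap4e1 from day 2 to day 3. F1, F2 and F3 rats were compared with the same AL samples, so that calls shared between days are not independent.

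Looser criteria gave the following counts. An unadjusted p under 0.05 was reached by 7 of the 60 genes in F1 against AL rats (20.6% of all genes), by 6 in F2 (12.8%), by 12 in F3 (26.0%), by 8 from F1 to F2 (17.3%) and by 7 from F2 to F3 rats (22.0%). The samples of both groups did not overlap for 17 of the 60 genes in F1 against AL rats (28.7% of all genes), for 8 in F2 (15.5%), for 24 in F3 (35.6%), for 14 from F1 to F2 (21.8%) and for 12 from F2 to F3 rats (26.8%). Of the 24 in F3 rats 11 lay above and 13 below AL. The median LFC of the 60 genes against AL was 0.0089 in F1, -0.0185 in F2 and -0.0284 in F3, beside -0.0043, -0.0085 and -0.0053 over all genes tested. The sign of these medians depended on the scaling, as that in F1 was -0.0524 with total counts and that in F2 was 0.0034 with upper-quartile scaling. Their median absolute LFC was 0.1008, 0.0950 and 0.1035, beside 0.1248, 0.1045 and 0.1432 over the genes with a mean of at least 100 normalized counts.

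**Figure D1:**
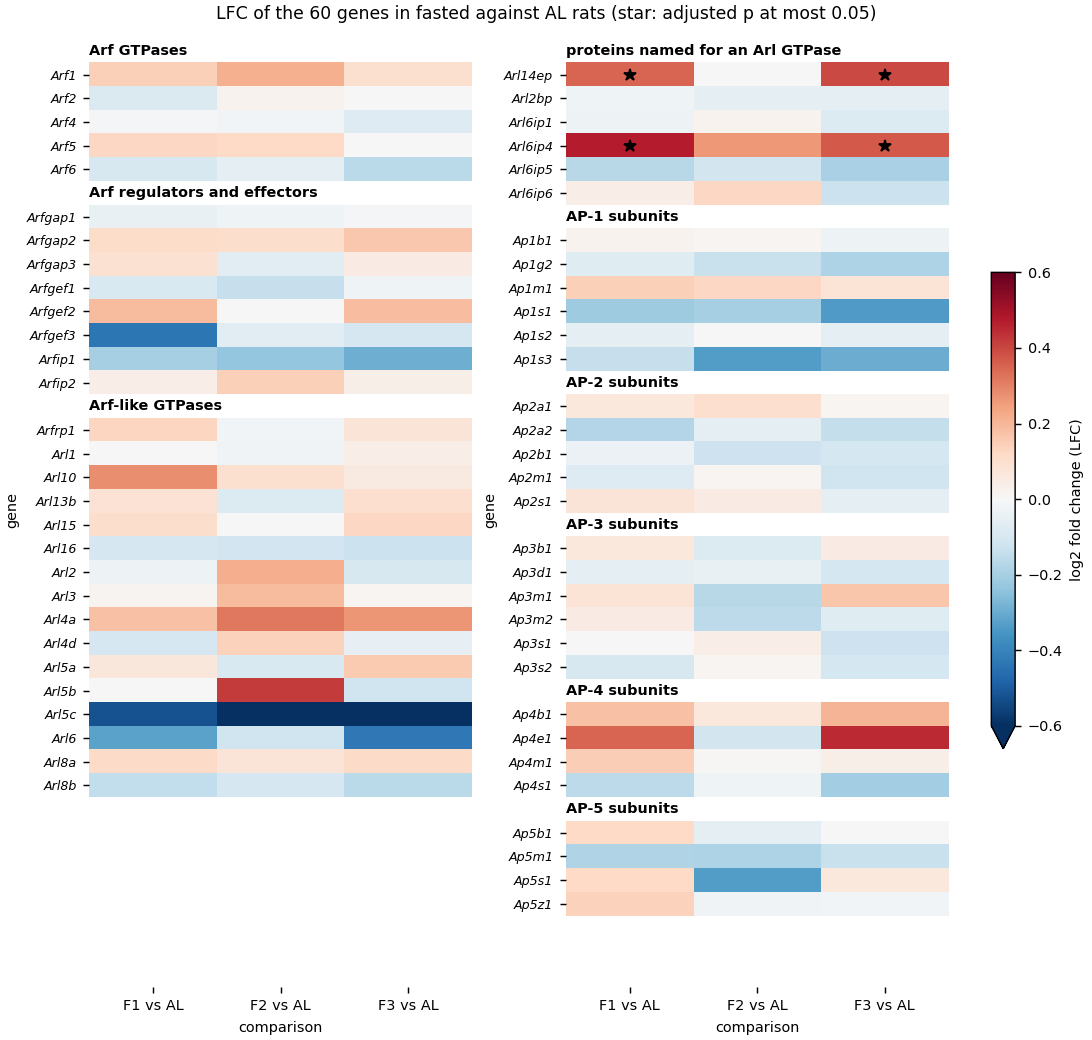
Heat map of the LFC against AL (color, log2 scale) of the 60 genes, 1 row per gene grouped by class, with 1 column per fasted group and a star where the adjusted p was at most 0.05. The 4 stars are those of Arl14ep and Arl6ip4 in F1 and F3 rats, most of the other cells are pale, and the darkest, those of Arl5c, belong to a gene with a mean of 17.8 normalized counts.

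The intervals bound how large a change could have been missed. For 47 of the 60 genes the 95% confidence interval of the LFC stayed within 0.5 on either side of 0 in F1, F2 and F3 rats alike, and for 58 it stayed within 1. The 2 exceptions at the wider bound were Arl5c and Arfgef3, the gene with the fewest reads, 3 in its lowest sample. Gene lengths were not used here, so that levels are compared between groups and never between genes.

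The 5 Arf GTPases of the list, which lacks Arf3, had intervals within 0.5 on all 3 days, with the extreme bounds at -0.31 and 0.36. Arf1, which recruits the COPI coat and AP-1 to Golgi membranes, was measured at 4770.1, 5393 and 4996 normalized counts in AL samples i, j and k, at 5410.3, 5719.7 and 5611 in F1, at 5751, 5948 and 5864 in F2, and at 5557, 5388 and 5276 in F3. All F1 and F2 samples were above all AL samples, and those of F3 overlapped with AL. The LFC of Arf1 was 0.14 ± 0.07 (SE) in F1, 0.21 ± 0.07 in F2 and 0.10 ± 0.07 in F3 rats, and the value in F2 missed the threshold of edgeR's quasi-likelihood test (Benjamini-Hochberg adjusted p = 0.181) but passed that of DESeq2's Wald test (adjusted p = 0.0236). RefSeq names 5 pseudogenes of Arf1, and since the authors removed reads that matched more than once, its count is uncertain.

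Arf6, which acts at the plasma membrane and in endosome recycling, had the lowest F3 values of this class relative to AL, with 2843, 2930 and 2752 in F3 against 2956, 3132 and 3439.9 normalized counts in AL samples. The groups did not overlap, yet the LFC of -0.16 ± 0.07 missed the threshold (edgeR's quasi-likelihood test, Benjamini-Hochberg adjusted p = 0.154). Arf4 and Arf5, which act between the endoplasmic reticulum and the Golgi, and Arf2, a class I Arf of rodents close to Arf1, overlapped between AL and each fasted group. Their LFCs ranged from -0.09 for Arf2 in F1 to 0.13 for Arf5 in F1 rats.

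**Figure D2:**
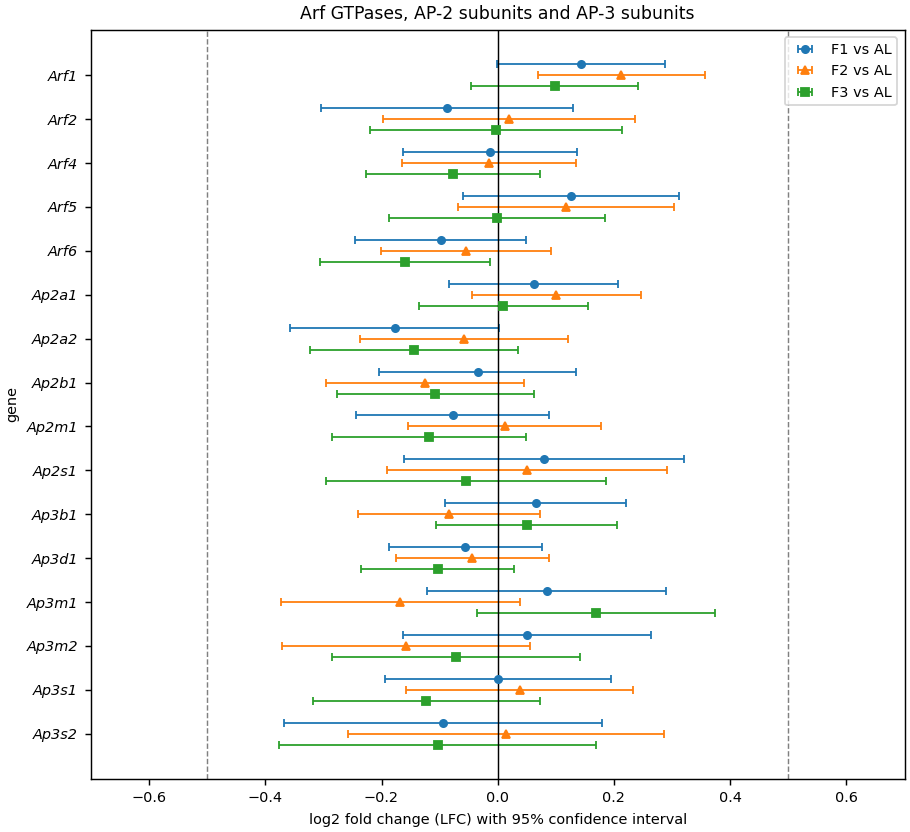
LFC against AL (x axis, log2 scale) with its 95% confidence interval for the 5 Arf GTPases, the 5 AP-2 subunits and the 6 AP-3 subunits, with circles for F1, triangles for F2 and squares for F3 rats, n = 3 per group. Every interval lies between the dashed lines at 0.5 on either side of 0, that of Arf1 in F2 rats lies to the right of 0 and that of Arf6 in F3 rats to the left.

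Among the 8 regulators and effectors of Arf proteins, none passed the threshold. The ArfGAPs of the Golgi, Arfgap1, Arfgap2 and Arfgap3, which trigger GTP hydrolysis by Arf1 on COPI vesicles, had LFCs between -0.07 (Arfgap3 in F2) and 0.16 (Arfgap2 in F3). The ArfGEF genes of the trans-Golgi network were Arfgef1 and Arfgef2. Arfgef1 had 3635, 3701 and 3901 normalized counts in AL, 3827, 3416 and 3291 in F1, 3731, 2686 and 3793 in F2, and 3736, 3638 and 3653 in F3 samples. F2 sample j lay far below the other 11 samples for this gene, and its groups overlapped throughout. Arfgef2 had an LFC of 0.19 ± 0.09 in F1 and 0.18 ± 0.09 in F3 rats, with no overlap between AL and either group (edgeR's quasi-likelihood test, Benjamini-Hochberg adjusted p = 0.25 and 0.208). F2 sample j was again the lowest for Arfgef2, at 2024 normalized counts against 2525 and 2602 in the other F2 samples.

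Arfip1, the gene for arfaptin 1, a curved-membrane binding effector of Arf1 and Arl1 at the trans-Golgi network, was 1 of 2 members, with Arl8b, whose fasted samples were all below those of AL rats. It was at 652, 535 and 551 normalized counts in AL, 481, 514 and 520.3 in F1, 442, 525 and 514 in F2, and 471, 493 and 454 in F3 samples. The AL samples overlapped with no other group, sample i being the highest of the 12. The LFC was -0.20 ± 0.10 in F1, -0.23 ± 0.10 in F2 and -0.30 ± 0.10 in F3 rats, and none passed edgeR's quasi-likelihood test (Benjamini-Hochberg adjusted p = 0.262, 0.328 and 0.0621). Without AL sample i the LFCs were -0.10, -0.13 and -0.19. With total counts as scaling, or without F2 sample j, the F3 value passed (adjusted p = 0.0489 and 0.0356), and it missed the threshold under the other alternatives. Arfgef3, a brain exchange factor-like gene with 3.05 to 11.9 normalized counts per sample, was too low to describe. Arfip2, the gene for arfaptin 2, had LFCs of 0.04, 0.14 and 0.04 in F1, F2 and F3 rats and overlapped with AL each time.

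15 of 20 listed genes for other ArfGAP proteins had an identifier, and 2 of them were past the threshold in F1 as well as in F3 against AL rats, 1 up and 1 down. Arap1, the gene for an ArfGAP linked to receptor traffic, was at 1255, 1192 and 1080.0 normalized counts in AL, 1755, 1517 and 1555 in F1, 1162, 1036 and 1083 in F2, and 1582, 1337 and 1642 in F3 samples. F1 and F3 samples were all above AL samples, and F2 samples overlapped with them. It rose 1.37-fold in F1 (LFC 0.45 ± 0.09, edgeR's quasi-likelihood test, Benjamini-Hochberg adjusted p = 0.0113) and 1.29-fold in F3 rats (LFC 0.37 ± 0.09, adjusted p = 0.0184). The adjusted p of edgeR rose to 0.0561 and 0.0533 in F1 without AL sample k and F1 sample i, respectively. In F3 it rose to 0.077 without AL sample k, and to 0.0818 and 0.0837 when i or k of the F3 samples was left out. Between fasted groups, Arap1 fell from F1 to F2 rats (LFC -0.56 ± 0.09, edgeR's quasi-likelihood test, Benjamini-Hochberg adjusted p = 0.0195). It rose from F2 to F3 rats (LFC 0.48 ± 0.09, adjusted p = 0.0118 by edgeR). These changes between fasted groups were not followed through the alternatives.

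Asap3, the gene for an ArfGAP of focal adhesions, was at 736, 670.1 and 704 normalized counts in AL, 428, 473 and 568 in F1, 644, 756 and 565 in F2, and 312, 467 and 392 in F3 samples. It fell in F1, to 0.696 of AL (LFC -0.52 ± 0.15, edgeR's quasi-likelihood test, Benjamini-Hochberg adjusted p = 0.0483), and in F3 rats, to 0.555 of AL (LFC -0.85 ± 0.15, adjusted p = 0.00231). The call in F3 rats held under each alternative. That in F1 rats was lost under several, with an adjusted p of edgeR between 0.0643 and 0.166 without AL sample i, j or k, F1 sample i or j, F2 sample i or F3 sample k. It was also lost with upper-quartile scaling, no filter, the sample letter as a block and no robust moderation (0.0524, 0.052, 0.051 and 0.0511). From F2 to F3 rats Asap3 fell as well (LFC -0.75 ± 0.15, edgeR's quasi-likelihood test, Benjamini-Hochberg adjusted p = 0.0125). That change was not followed through the alternatives. The genes of the other exchange factors had no identifier and were not analysed, and the 1 gene of the COPI coat with an identifier, Arcn1, which encodes its delta subunit, had LFCs of -0.11, -0.05 and -0.06 in F1, F2 and F3 rats.

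**Figure D3:**
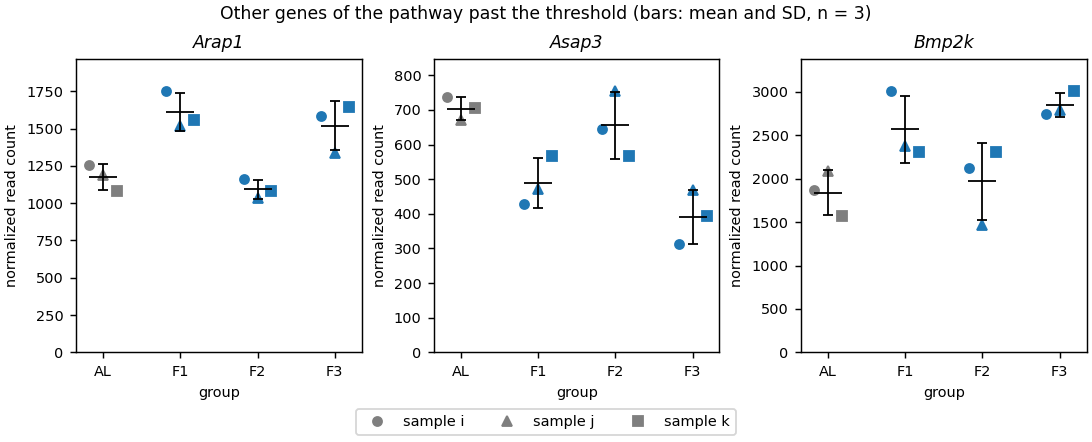
Normalized read counts (y axis, from 0) of Arap1, Asap3 and Bmp2k by group, with 1 marker per sample (circle i, triangle j, square k), gray for AL and blue for fasted rats, and bars for the mean and SD (n = 3). Arap1 is above AL in F1 and F3 and not in F2 rats, Asap3 is below AL in F1 and F3 rats, and Bmp2k is above AL in F1 and F3 rats.

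None of the 16 Arf-like GTPases passed the threshold against AL. Arl4a, whose protein binds the plasma membrane and recruits cytohesin exchange factors of Arf6, was at 14809, 12796 and 11489 normalized counts in AL, 15630.4, 14762 and 13804 in F1, 15007, 18248 and 15415 in F2, and 15047, 16232 and 15655 in F3 samples. F2 and F3 samples lay above those of AL, and F1 samples overlapped with them. Its LFC was 0.18 ± 0.10 in F1, 0.32 ± 0.10 in F2 and 0.26 ± 0.10 in F3 rats (edgeR's quasi-likelihood test, Benjamini-Hochberg adjusted p = 0.361, 0.197 and 0.118). The highest of the 12 samples was F2 sample j, and without it the LFC in F2 rats was 0.22. RefSeq places another protein-coding gene over the span of Arl4a, introns included. Overlap of exons or strands was not checked and the strand setting of the counting is not given, so that whether reads were shared is not known. Arl4d, its paralog, had LFCs of -0.10, 0.14 and -0.05.

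Arl8b and Arl8a, whose products couple lysosomes to kinesin, lay on opposite sides of AL. Arl8b was at 2852, 2831 and 2809 normalized counts in AL and between 2439 and 2680 in the 9 fasted samples, so that every fasted sample was below every AL sample. Its LFC was -0.15 ± 0.06 in F1, -0.10 ± 0.06 in F2 and -0.16 ± 0.06 in F3 rats (edgeR's quasi-likelihood test, Benjamini-Hochberg adjusted p = 0.164, 0.504 and 0.0896), and the F3 value passed DESeq2's Wald test (adjusted p = 0.0311). Arl8a had an LFC of 0.12, 0.08 and 0.11, without overlap with AL in F1 and F3 rats, and did not pass either test. Values of Arl8b and of Arl5b, below, were chosen for mention after they had been seen.

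Arl5b, a trans-Golgi GTPase that recruits the GARP tethering complex, stood out by the spread of its F2 samples. It was at 2008, 2502 and 1689.9 normalized counts in AL, 2163, 1910.4 and 2116 in F1, 3241, 2157 and 2909.9 in F2, and 2123, 1755 and 1825 in F3 samples. F2 samples i and k were the highest of the 12. The LFC from AL to F2 rats was 0.42 ± 0.16 (edgeR's quasi-likelihood test, Benjamini-Hochberg adjusted p = 0.271), with overlap, and that from F2 to F3 rats -0.54 ± 0.16 (adjusted p = 0.0618), without overlap. The latter passed DESeq2's Wald test (adjusted p = 0.0143) and, by edgeR, total counts, upper-quartile scaling and at least 10 reads in each sample (0.0402, 0.0452 and 0.0499), and also without AL sample j, AL sample k or F2 sample j (0.0394, 0.0465 and 0.0245). Its paralog Arl5a had LFCs of 0.07, -0.09 and 0.16 against AL.

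Arl6, the gene for a GTPase that recruits the BBSome coat to cilia, had 114, 103 and 107 normalized counts in AL and 76.1, 80.6 and 84.4 in F3 samples, without overlap. The LFC of -0.43 ± 0.16 in F3 rats missed the threshold (edgeR's quasi-likelihood test, Benjamini-Hochberg adjusted p = 0.0971). Arl13b and Arl3, a ciliary exchange factor and its substrate, had LFCs between -0.08 and 0.19, and Arl2, which acts in the folding of tubulin, between -0.09 and 0.22. For Arl2 and Arl3, F2 sample j was the highest of the 12, at 617 and 873 normalized counts. Arl1 and Arfrp1, which act in sequence in recruiting golgins to the trans-Golgi network, had LFCs between -0.02 and 0.13. Arl10, Arl15 and Arl16, whose roles are less settled, had LFCs of 0.28, 0.10 and 0.05, of 0.11, 0.00 and 0.12, and of -0.10, -0.11 and -0.13 in F1, F2 and F3 rats, and F1 samples of Arl10 were above those of AL. Arl5c had 7.02 to 31.1 normalized counts per sample, too few to describe.

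The class of proteins named for an Arl GTPase held both genes that rose against AL. Their products are not known as parts of a coat. Arl6ip4 encodes a nuclear protein rich in serine and arginine that has been linked to splicing, and was named for binding Arl6. Arl14ep encodes a protein that links Arl14 to a myosin and is also known from nuclear chromatin complexes.

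Arl6ip4 (ENSRNOG00000001080) was at 754, 827 and 777 normalized counts in AL, 1059.9, 1103.4 and 1103.5 in F1, 857, 1043 and 924 in F2, and 1099.8, 907 and 1036 in F3 samples. All 9 fasted samples were above the 3 AL samples, with means of 786 ± 37.3 (SD, n = 3) in AL, 1089 ± 25.1 in F1, 942 ± 94.3 in F2 and 1014 ± 98.2 in F3. It rose 1.39-fold in F1 rats (LFC 0.47 ± 0.09, 95% confidence interval 0.28 to 0.66, edgeR's quasi-likelihood test, Benjamini-Hochberg adjusted p = 0.0074) and 1.29-fold in F3 rats (LFC 0.37 ± 0.09, interval 0.18 to 0.56, adjusted p = 0.0156). In F2 rats its LFC was 0.26 ± 0.09 (interval 0.07 to 0.45, adjusted p = 0.218). The rise in F1 rats passed under each of the 22 alternatives, with an LFC between 0.41 and 0.51. That in F3 rats did not pass without AL sample i (adjusted p = 0.0566 by edgeR), nor when i or k of the F3 samples was left out (0.0873 and 0.051).

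Arl14ep (ENSRNOG00000004891) was at 377, 363 and 471 normalized counts in AL, 507, 516 and 519 in F1, 415, 379 and 416 in F2, and 554, 526 and 513 in F3 samples. F1 and F3 samples were all above those of AL and of F2, which overlapped with each other. The means were 404 ± 58.7 in AL, 514 ± 6.31 in F1, 403 ± 21.4 in F2 and 531 ± 20.8 in F3 (SD, n = 3), and the spread was widest in AL rats, where sample k was high. It rose 1.27-fold in F1 rats (LFC 0.35 ± 0.10, interval 0.14 to 0.56, edgeR's quasi-likelihood test, Benjamini-Hochberg adjusted p = 0.049) and 1.32-fold in F3 rats (LFC 0.40 ± 0.10, interval 0.19 to 0.61, adjusted p = 0.0172). In F2 rats the LFC was -0.001 with an interval from -0.21 to 0.21.

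From F1 to F2 rats Arl14ep had an LFC of -0.35 ± 0.10, without overlap, which missed the threshold of edgeR's quasi-likelihood test (Benjamini-Hochberg adjusted p = 0.0887). From F2 to F3 rats it rose 1.32-fold (LFC 0.40 ± 0.10, adjusted p = 0.0315 by edgeR). The call in F1 rats was the least firm, as it kept the threshold without AL sample k and without F2 sample j and lost it without any other single sample, with an adjusted p by edgeR between 0.0576 and 0.174. In F3 against AL rats it was lost without i or j of the AL samples or i of F3 (0.0702, 0.0723 and 0.0794), and in F3 against F2 rats without any 1 of the 6 samples compared (0.0511 to 0.128).

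**Figure D4:**
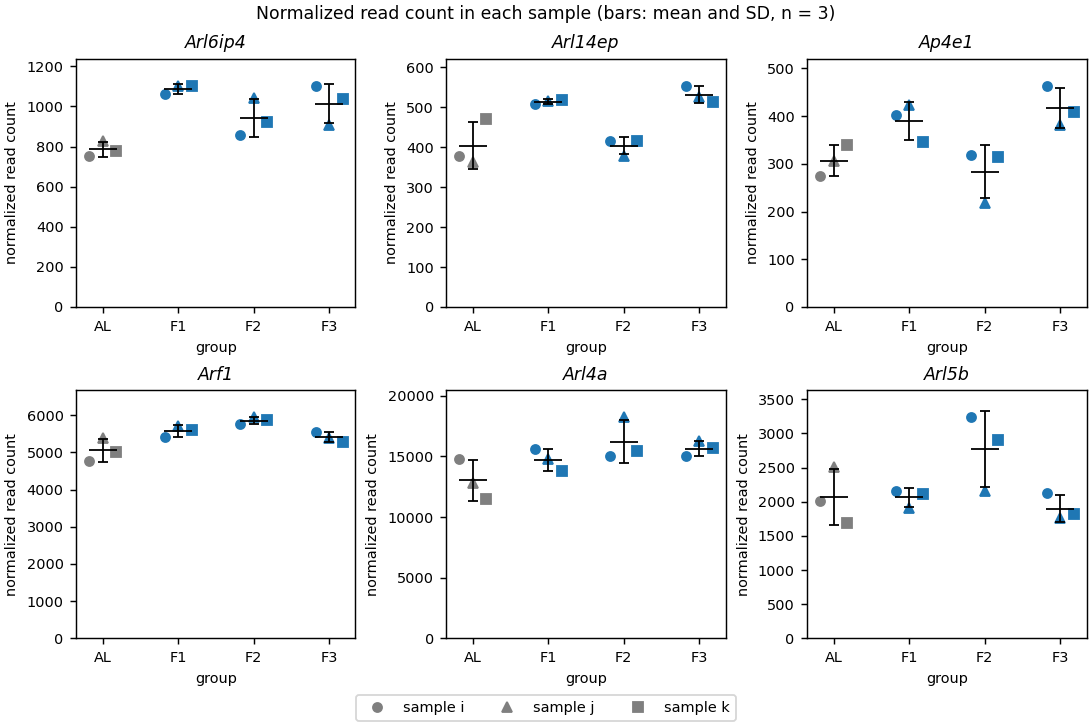
Normalized read counts (y axis, from 0) of Arl6ip4, Arl14ep, Ap4e1, Arf1, Arl4a and Arl5b by group, with 1 marker per sample (circle i, triangle j, square k), gray for AL and blue for fasted rats, and bars for the mean and SD (n = 3). Arl6ip4 is above AL in all 9 fasted samples, and Arl14ep and Ap4e1 are above AL in F1 and F3 rats and not in F2 rats. Ap4e1 passed the threshold of edgeR's main test only from F2 to F3 rats and not against AL. Arf1, Arl4a and Arl5b did not pass it.

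The other 4 genes of this class did not pass the threshold. Arl2bp, whose product binds Arl2, was at 7223 to 7680 normalized counts in AL and 7031 to 7422 in fasted samples, with an LFC of -0.03 in F1, -0.06 in F2 and -0.06 in F3 rats and intervals within 0.19 of 0. Arl6ip1, which shapes tubules of the endoplasmic reticulum, had LFCs from -0.08 to 0.02. Arl6ip5, an endoplasmic reticulum protein that regulates a glutamate transporter, had LFCs of -0.17, -0.11 and -0.20, without overlap in F1 and F3 rats (edgeR's quasi-likelihood test, Benjamini-Hochberg adjusted p = 0.241 and 0.126). Arl6ip6 had LFCs of 0.04, 0.13 and -0.13 and overlapped with AL each time.

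Because Arl6ip4, Arl14ep and Ap4e1, an AP-4 subunit, were the only genes of the list past a threshold in edgeR's main test, the 250 bases before their annotated start are shown, from RefSeq on GRCr8, a later assembly than the one used for counting. All 60 genes had a RefSeq gene of the same symbol, and 55 had an upstream sequence. Capitals mark the letters CCGGAAG or, on the other strand, CTTCCGG, the core bound by ETS factors, and also the E-box CACGTG and the CCAAT box (ATTGG on the other strand). No marked motif overlaps another. These motifs, and the cAMP response element TGACGTCA, were chosen after the sequences had been seen.
Arl6ip4 (chr12:38142712-38142961, minus strand): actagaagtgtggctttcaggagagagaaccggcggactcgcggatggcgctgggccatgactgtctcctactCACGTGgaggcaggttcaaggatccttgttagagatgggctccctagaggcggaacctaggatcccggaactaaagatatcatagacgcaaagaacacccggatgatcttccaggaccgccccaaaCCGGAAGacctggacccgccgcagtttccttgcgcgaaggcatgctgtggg
Arl14ep (chr3:113908834-113909083, minus strand): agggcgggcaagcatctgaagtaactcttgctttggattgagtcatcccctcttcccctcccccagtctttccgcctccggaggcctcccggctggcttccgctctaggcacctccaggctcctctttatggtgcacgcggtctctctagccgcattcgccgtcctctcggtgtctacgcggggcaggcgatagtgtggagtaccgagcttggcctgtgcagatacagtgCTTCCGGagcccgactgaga
Ap4e1 (chr3:134726088-134726337, plus strand): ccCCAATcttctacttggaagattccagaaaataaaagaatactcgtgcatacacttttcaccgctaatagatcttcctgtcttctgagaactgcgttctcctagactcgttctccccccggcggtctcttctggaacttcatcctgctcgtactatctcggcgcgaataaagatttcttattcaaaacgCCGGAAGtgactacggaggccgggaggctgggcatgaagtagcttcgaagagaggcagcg

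Each of the 3 windows held 1 match to the ETS core, beginning 51 bases before the start in Arl6ip4, 20 in Arl14ep and 60 in Ap4e1. The match is in the orientation of the gene in Arl6ip4 and Ap4e1 and in the reverse one in Arl14ep. Of the 55 members with an upstream sequence 19 (34.5%), the 3 shown among them, held it, against 7.74% of 27457 genes and 9.52% of 19005 protein-coding genes with a sequence of that length. These comparison sets were taken whether or not a gene is expressed in CECs, and the share among the genes tested was not computed. An E-box was found in 7 of the 55 (12.7%, against 5.79% of all genes and 6.38% of protein-coding ones), among them Arl6ip4, where it lies 177 bases before the start. The cAMP response element was found in 4 (7.27%, against 1.70% and 2.03%), none of them 1 of the 3, and the CCAAT box in 21 (38.2%, against 34.3% and 35.5%), among them Ap4e1. Most members with an ETS core did not pass any threshold, and a match is a description of letters, not a measured site.

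The 6 listed subunit genes of AP-1, which carries cargo between the trans-Golgi network and endosomes, did not pass the threshold on any day. Ap1g1 and Ap1m2 were not on the list. Ap1b1, the gene for its large beta subunit, was at 2752 to 2923 normalized counts in AL, 2879.5 to 2924.5 in F1, 2754.5 to 2997 in F2 and 2735 to 2893 in F3 samples. All groups overlapped, and its LFCs of 0.02, 0.01 and -0.03 had intervals within 0.16 of 0. Ap1m1, the gene for the mu subunit that reads sorting signals, was above AL in all 9 fasted samples (1954 to 2181 against 1850.4 to 1922 normalized counts). Its LFC was 0.14 ± 0.06 in F1, 0.12 ± 0.06 in F2 and 0.08 ± 0.06 in F3 rats (edgeR's quasi-likelihood test, Benjamini-Hochberg adjusted p = 0.212, 0.444 and 0.456).

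Ap1s1, 1 of the 3 sigma subunit genes, went the other way. It was at 375, 405 and 394 normalized counts in AL, 291, 389.9 and 332 in F1, 362, 364 and 298 in F2, and 288, 312 and 329 in F3 samples. F2 and F3 samples were all below AL samples, and F1 sample j overlapped with them. The LFC was -0.21 ± 0.12 in F1, -0.20 ± 0.12 in F2 and -0.34 ± 0.12 in F3 rats (edgeR's quasi-likelihood test, Benjamini-Hochberg adjusted p = 0.329, 0.511 and 0.0795). In F3 rats it passed with total counts as scaling and when only the 6 samples compared were fitted (0.0478 and 0.0281). Ap1s3, another sigma subunit gene, had LFCs of -0.14, -0.34 and -0.30 at a mean of 85.4 normalized counts, and Ap1s2 had LFCs of -0.06, 0.00 and -0.06. Ap1g2, the gene for a large gamma subunit, had LFCs of -0.07, -0.13 and -0.18 and overlapped with AL on each day.

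The 5 subunits of AP-2, the adaptor of clathrin-mediated endocytosis, all had intervals between -0.36 and 0.32 on the 3 days, and none passed the threshold. Ap2m1, the gene for the mu subunit that binds tyrosine-based signals of cargo receptors, was at 12360, 13248 and 12928 normalized counts in AL, 11946, 12409 and 12164 in F1, 11957, 14299 and 12603 in F2, and 11452, 12222 and 11823 in F3 samples. F3 samples were all below AL samples, F1 and F2 samples overlapped with AL, and F2 sample j was the highest of the 12. Its LFC was -0.08 ± 0.08 in F1, 0.01 ± 0.08 in F2 and -0.12 ± 0.08 in F3 rats (edgeR's quasi-likelihood test, Benjamini-Hochberg adjusted p = 0.627, 0.966 and 0.377). Ap2a1 and Ap2a2, the genes for the alternative large alpha subunits, had LFCs of 0.06, 0.10 and 0.01 and of -0.18, -0.06 and -0.14. Ap2b1 and Ap2s1, the genes for the beta and sigma subunits, had LFCs between -0.13 and 0.08.

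Of 24 listed genes for clathrin and its endocytic partners 2 had an identifier, both for related kinases known to phosphorylate the AP-2 mu subunit. Bmp2k was at 1869, 2085 and 1567 normalized counts in AL, 3017, 2382 and 2311.5 in F1, 2125, 1472 and 2311.5 in F2, and 2742, 2795 and 3009.6 in F3 samples. F1 and F3 samples were above all AL samples and F2 samples overlapped with them. It rose 1.55-fold in F3 rats (LFC 0.63 ± 0.16, edgeR's quasi-likelihood test, Benjamini-Hochberg adjusted p = 0.0222), and its LFC of 0.48 ± 0.16 in F1 rats missed the threshold (adjusted p = 0.0982). The F3 call was lost when i or k of the AL samples (adjusted p = 0.0615 and 0.0789 by edgeR) or i or k of the F3 samples (0.06 and 0.0673) was left out. Aak1 had LFCs of 0.52 in F1, -0.01 in F2 and 0.67 in F3 rats, each with an SE of 0.28, and did not pass. F2 sample j was the lowest of the 12 for both kinases, at 1472 and 241 normalized counts.

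The 6 subunits of AP-3 also had narrow intervals, between -0.38 and 0.37. Ap3d1, the gene for the large delta subunit, was at 4779, 4851 and 4653 normalized counts in AL, 4643, 4604 and 4494 in F1, 4727, 4672 and 4461 in F2, and 4284, 4498 and 4512 in F3 samples. F1 and F3 samples were below those of AL by little, with LFCs of -0.06 ± 0.06 and -0.10 ± 0.06, and F2 samples overlapped with AL (LFC -0.04 ± 0.06). Ap3m1, the gene for 1 of its mu subunits, was the member of this class that differed most between days, at 751, 659 and 784 normalized counts in F2 and 1009, 913 and 846 in F3 samples. The groups did not overlap, and the LFC of 0.34 ± 0.10 from F2 to F3 rats missed the threshold of edgeR's quasi-likelihood test (Benjamini-Hochberg adjusted p = 0.0539) and passed DESeq2's Wald test (adjusted p = 0.0277). The other 4 genes, Ap3b1 for a large beta subunit, Ap3m2 for the other mu subunit, and Ap3s1 and Ap3s2 for the sigma subunits, had LFCs between -0.16 and 0.07 against AL.

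Of the 4 subunits of AP-4, which exports cargo such as the autophagy protein ATG9A from the trans-Golgi network, the gene for the large epsilon subunit, Ap4e1, rose from day 2 to day 3. Ap4e1 (ENSRNOG00000022938) was at 275, 307 and 339 normalized counts in AL, 402, 422 and 346 in F1, 318, 219 and 315 in F2, and 464, 381 and 408 in F3 samples. F1 and F3 samples were all above those of AL and of F2, and F2 samples overlapped with AL, with sample j the lowest of the 12. The means were 307 ± 31.9 in AL, 390.2 ± 39.7 in F1, 284 ± 56.2 in F2 and 418 ± 42.4 in F3 (SD, n = 3). From F2 to F3 it rose 1.47-fold (LFC 0.56 ± 0.14, 95% confidence interval 0.25 to 0.86, edgeR's quasi-likelihood test, Benjamini-Hochberg adjusted p = 0.0367).

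Against AL, the LFC of Ap4e1 was 0.35 ± 0.14 in F1, -0.11 ± 0.14 in F2 and 0.45 ± 0.14 in F3 rats (edgeR's quasi-likelihood test, Benjamini-Hochberg adjusted p = 0.181, 0.794 and 0.0574). Without F2 sample j, its LFC from F2 to F3 was 0.40 and its adjusted p 0.0758 by edgeR, while its rise from AL to F3 passed (LFC 0.45, adjusted p = 0.0106). That rise also passed with upper-quartile scaling, no filter and a fit of the 6 samples compared (adjusted p = 0.0466, 0.0437 and 0.0205 by edgeR) and in DESeq2's Wald test (0.0319). The rise from F2 to F3 was also lost without F1 sample j (adjusted p = 0.0515 by edgeR) and without i, j or k of the F3 samples (0.159, 0.0537 and 0.083). RefSeq places another protein-coding gene over the span of Ap4e1, and overlap of exons or strands was not checked.

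The other AP-4 subunit genes did not pass the threshold. Ap4b1, the gene for the beta subunit, was at 915, 879.8 and 944 normalized counts in AL, 1142, 998 and 952 in F1, 901, 1027.4 and 935 in F2, and 1044, 1027.3 and 1079 in F3 samples. F1 and F3 samples were above all AL samples, with LFCs of 0.18 ± 0.08 and 0.20 ± 0.08 that missed the threshold (edgeR's quasi-likelihood test, Benjamini-Hochberg adjusted p = 0.234 and 0.126), and F2 samples overlapped with AL (LFC 0.06 ± 0.08). The F3 value passed when only the 6 samples compared were fitted (adjusted p = 0.0468 by edgeR). Ap4m1, the gene for the mu subunit, had LFCs of 0.15, 0.01 and 0.04. Ap4s1, the gene for the sigma subunit, had LFCs of -0.16, -0.03 and -0.21, with F3 samples all below AL samples. Whether the subunits differed from each other in their response was not tested.

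**Figure D5:**
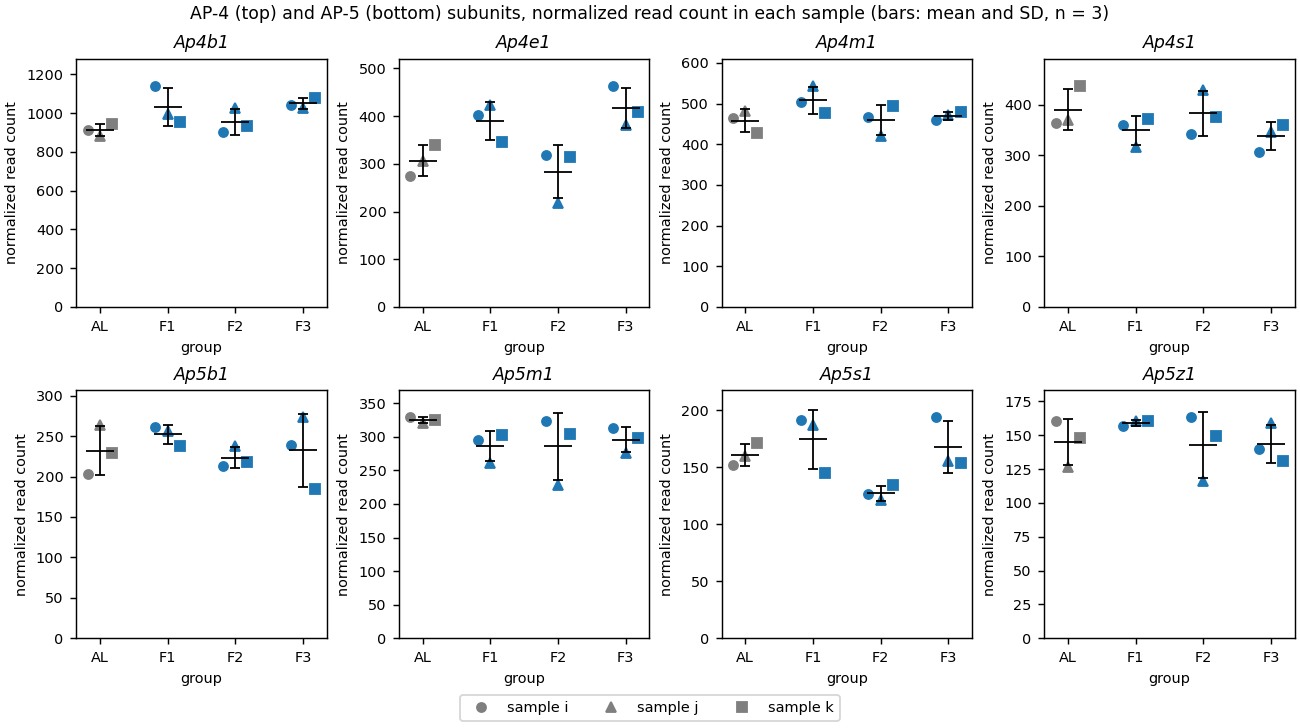
Normalized read counts (y axis, from 0, its own scale for each gene) of the 4 AP-4 subunit genes (top) and the 4 AP-5 subunit genes (bottom) by group, with 1 marker per sample (circle i, triangle j, square k), gray for AL and blue for fasted rats, and bars for the mean and SD (n = 3). Ap4e1 and Ap5s1 are lower in all 3 F2 samples than in all F1 and F3 samples, and Ap4s1 and Ap5m1 are lower in F3 than in AL samples.

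The 4 subunits of AP-5, which works with spatacsin and spastizin on late endosomes and lysosomes, did not pass the threshold. Ap5s1, the gene for the sigma subunit, was at 152, 159.5 and 171 normalized counts in AL, 191, 187 and 145 in F1, 126, 121 and 134 in F2, and 194, 155 and 154 in F3 samples. F2 samples were below all samples of the 3 other groups. The LFC was -0.34 ± 0.14 from AL to F2, -0.46 ± 0.14 from F1 to F2 and 0.40 ± 0.14 from F2 to F3 rats, and none passed edgeR's quasi-likelihood test (Benjamini-Hochberg adjusted p = 0.34, 0.12 and 0.116). Ap5m1, the gene for the mu subunit, was at 329, 320.0 and 324 normalized counts in AL and 295, 262 and 303 in F1 samples, which did not overlap, with an LFC of -0.18 ± 0.12 (adjusted p = 0.451 by edgeR). It was at 324, 229 and 305 in F2 and 313, 277 and 298 in F3 samples. Ap5b1 and Ap5z1, the genes for the beta and zeta subunits, had LFCs between -0.05 and 0.14 and overlapped with AL on each day.

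Of 9 listed genes for GGA adaptors and accessory proteins of AP complexes, 2 had an identifier. Ap1ar, whose product binds AP-1, had LFCs of 0.24, 0.16 and 0.22, and Aftph, the gene for the clathrin adaptor partner aftiphilin, had LFCs of -0.08, -0.02 and -0.03. Neither passed the threshold on any day. Of the 60 genes, 26 overlap another gene by their span in RefSeq, introns included. For 14 of them a protein-coding gene overlaps, among them Ap4e1, Ap3m1, Arl4a and Arl6ip5. Arl14ep overlaps the pseudogene Hint1-ps4. A RefSeq pseudogene named after the gene exists for 12 of the 60. Overlap of exons or strands was not checked, so that the counts of these genes may be less certain than those of Arl6ip4, which has no such overlap or pseudogene.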

How the data were processed

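Poly(A) RNA of CECs was sequenced from stranded TruSeq libraries. Per the labels and the study's methods, the authors demultiplexed reads with bcl2fastq 2.18.0.12, aligned them to Rnor_6.0 with STAR, discarded reads with several matches and counted the rest per gene with HTSeq 0.5.3. The deposited values are these raw counts, in 48 files, and the strand setting of the counting is not given in the sources used here. Counts were added up over the 4 technical replicates, giving 12 samples. 1 technical replicate of F1 sample k, whose labels disagree, was grouped by its title, and an alternative left it out. No column was left unmapped. Genes with at least 1 read in each sample were tested with edgeR 4.0.16 (TMM scaling, 1 model with 4 group means, robust quasi-likelihood test) in R 4.3.3, with Benjamini-Hochberg adjustment over all 13050 genes and a threshold of 0.05, after a test on simulated data. Alternatives used other scalings and filters, DESeq2 1.42.0, a fit of the 6 samples in question alone, a block for the sample letter, no robust moderation, and each sample left out. The study's methods describe the 3 samples of a group as independent experiments. The technical replicates of a sample differed by no more than counting error. Counting error is the only error that depth bounds.

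The members and gene lists were chosen with earlier results of these data known. The genes named were each member past the threshold, for each comparison with AL the 2 largest rises and the 2 largest falls among members whose groups did not overlap and whose mean reached 100 normalized counts, the most abundant member of each class, and called genes of the other lists. Levels per gene length, which the design foresaw, were not computed because no transcript lengths were used here. Genes outside this rule, such as Arl5b, Arl8b, Ap1m1, Ap3m1 and Arf6, were chosen after their values were seen. Symbols came from the study's supplementary gene tables, used in part, and promoters and overlaps from RefSeq (GRCr8).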

Additional observations from a re-analysis of the deposited data

Results flagged for a closer look

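The levels of 2 genes differed between 2 fasted groups by a direct test of the later against the earlier group. Ap4e1 had an LFC of 0.558 and Arl14ep an LFC of 0.398 from day 2 to day 3 of fasting, each higher in 3 of 3 F3 samples than in every F2 sample (edgeR's quasi-likelihood test, Benjamini-Hochberg adjusted p = 0.0367 and 0.0315). Without F2 sample j the LFCs were 0.40 and 0.35 and neither passed (adjusted p = 0.0758 and 0.0675). The part of that sample in these differences was not tested further. Groups of 3 samples were not tested for single outlying samples.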

How the results depend on the processing

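Of the alternative LFCs of the named genes, 519 kept their direction and side of the threshold, 55 lost the threshold, 10 gained it and 10 turned their direction, and the 18 alternative levels moved by less than the SD. The LFC of Arl14ep in F2 against AL rats became 0.0024 with DESeq2 size factors, 0.02 with upper-quartile scaling, 0.0034 in the DESeq2 Wald test, 0.0109 with no filter, 0.0003 with at least 10 reads in each sample, 0.0011 with only the 6 samples compared and 0.0019 with the replicate block, and ranged from -0.071 to 0.1217 when 1 sample was left out (0.1217 without AL sample k). That of Ap4e1 ranged from -0.2006 to 0.0451 when 1 sample was left out (0.0451 without F2 sample j).

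In F1 against AL rats 1 of the 60 genes, Arl6ip4, was called with total counts, upper-quartile scaling and no filter (7.42%, 6.30% and 3.94% of all genes). The same gene alone was called with only the 6 samples compared, the replicate block and no robust moderation (8.11%, 5.73% and 6.57%). When 1 sample was left out 1 to 2 were called, where 2.36% to 11.1% of all genes were. In F2 against AL and in F2 against F1 rats DESeq2 called 1 gene each, Arf1 and Arl14ep (2.75% and 4.72% of all genes). In F3 against AL rats 5 were called with total counts, 4 by DESeq2 and 5 with only the 6 samples compared (12.4%, 14.4% and 15.6% of all genes), and 0 to 8 when 1 sample was left out. The 0 was without F3 sample i (8 at an unadjusted p under 0.05), where 6.07% of all genes were called. The 8 was without F2 sample j, where 18.1% of all genes were called. In F3 against F2 rats 4 were called by DESeq2 and 4 with at least 10 reads in each sample, 0 with only the 6 samples compared (9.41%, 7.90% and 2.01% of all genes), 3 with total counts and 3 with upper-quartile scaling, Arl5b being the lower 1 each time (5.95% of all genes in both), and 0 to 3 when 1 sample was left out (0 without i, j or k of F3, 3 without j or k of AL). The causes were not tested.

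The letters i, j and k are not stated to pair samples. The correlations of same-letter deviations between groups ranged from -0.0159 to 0.134, and those of different letters from -0.183 to 0.193. These ranges do not settle whether the letters mark a shared batch. With the replicate block 1 gene was called in F1, 2 in F3 against AL and 2 in F3 against F2 rats (5.73%, 11.6% and 5.45% of all genes). 4 genes had a mean under 100 normalized counts, and the intervals of Arl5c and Arfgef3 among them were the widest of the 60.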
